A study of Mus musculus with 21 samples.

Results

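Single-base changes called in 1 mouse tumour and in no other tumour of the series, and not listed in dbSNP, are described here. A site was chosen when its chromosome, position, reference base and alternative base occurred in exactly 1 of the 8 deposited tumour lists and its dbSNP field was empty. This gave 423 private sites of 15030 distinct tumour sites (2.81%). Of the remaining sites, 347 had no identifier but were called in 2 or more tumours (recurrent sites), and 14260 had a dbSNP identifier. The sites were thus chosen by which of the 8 tumours had a call, so the reads, base qualities and allele fractions behind those calls are described without a test. The class of substitution, the kind of region and the gene annotation were not criteria of the choice. The dbSNP field was, and it also defines the dbSNP sites that the private sites are compared with.

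The series asked how stable the genome of mouse embryonic stem cells (ESCs) is in different culture media, and it includes tumours of mice made from such cells by tetraploid complementation, a method that lets injected stem cells form the fetus while the host embryo gives the placenta. The labels give every sample the strain written C57BL6X129S6F1. Tumour names carry an ESC condition: 3 tumours were T-A2iL-P9, 1 was T-A2iL-P14, 1 was T-2iL-P9, 1 was T-2iL-F-P9 and 2 were T-LCDM-P9. A2iL is N2B27 medium with leukaemia inhibitory factor (LIF, 1000 IU), CHIR99021 (3 µM), which inhibits GSK3, and CGP77675 (1.5 µM), an inhibitor of Src kinases. 2iL has LIF (1000 IU), PD0325901 (1 µM), which blocks MEK, and CHIR99021 (3 µM), and 2iL-F is the same medium without feeder cells. LCDM has LIF (1000 IU), CHIR99021 (3 µM) and the additives written Dim and Mih (2 µM each). What P9 and P14 stand for, the tumour type, the age of the mice and whether 2 tumours came from 1 mouse or 1 ESC clone are not given in the sources used here. The title names exome sequencing while the design text names ATAC-seq for the tumours, so the assay behind the tumour lists is not settled. The headers of the T-2iL-P9 and T-2iL-F-P9 lists carry other names than the labels do, and an exchange of these 2 tumours cannot be told from the labels.

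A change acquired by a cell during culture, development or tumour growth is carried by the descendants of that cell. Its share of the reads at the site, the alternative-allele fraction, is near 0.5 for a heterozygous autosomal change in every sampled cell, lower when some of the cells carry it, and near 1 when no reference allele is left. Exchanges within the purines or within the pyrimidines are transitions, and all others are transversions. In mammals C>T transitions are common because methylated cytosine deaminates to thymine.

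Of the private sites, 217 were intronic, 117 coding, 37 intergenic, 22 in untranslated regions, 20 in non-coding RNA genes, 8 in the flanks of genes and 2 near splice sites. The coding sites comprised 70 missense, 44 synonymous, 2 stop-gain and 1 stop-loss change. LCDM-P9 tumour 2, described apart below, held 63 of the 117 coding and 40 of the 70 missense sites. None lay in any of 1005 annotated microRNA hairpins. A window of 250 bases before to 50 bases after a RefSeq transcription start held 6 private sites.

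Sequence around 4 of these promoter sites is shown because no coding consequence applies to them and the changed base can be read in its surroundings. Each line gives the gene strand 5′ to 3′ with 20 bases on either side, from RefSeq (GRCm38.p6, minus strand), and the capital is the reference base that was called as changed.
Olfr307, chr7:86336432-86336472: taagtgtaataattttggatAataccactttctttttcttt
Lipo4, chr19:33517814-33517854: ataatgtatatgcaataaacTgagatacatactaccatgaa
Wwtr1, chr3:57575995-57576035: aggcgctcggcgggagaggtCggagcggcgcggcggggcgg
Aptx, chr4:40703194-40703234: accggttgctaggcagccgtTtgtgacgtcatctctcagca

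The base before the olfactory receptor gene Olfr307, 58 bases upstream of its start, was called A>C on the gene strand in 6 of 24 reads of the A2iL-P14 tumour, at a base quality of 15. The same site was in 1 ESC list, of LCDM, at a fraction of 0.714. Lipo4, a lipase gene, had a T>G call 64 bases upstream in 13 of 106 reads of A2iL-P9 tumour 3, at a base quality of 19 and inside a segmental duplication. Both of these calls had low base quality, a property shared by most T>G calls below (A>C on one strand is T>G on the other). Wwtr1, which encodes the Hippo pathway coactivator TAZ, had a C>G call 105 bases upstream in 3 of 7 reads of LCDM-P9 tumour 1 (95% Wilson interval of the fraction 0.158 to 0.750). Aptx encodes aprataxin, which repairs abortive DNA ligation ends, and its T>A call 20 bases upstream had 7 of 56 reads in LCDM-P9 tumour 2, at a base quality of 33. The letters TGACGTCA, the palindromic cAMP response element, follow the changed Aptx base after 2 further bases. They occur in 588 of 32817 promoter windows (1.79%) on either strand, and the called change leaves them intact. The remaining 2 promoter sites were a coding C>T change of Mbnl2 that lies before Gm26679 and a call in the 5′ untranslated region of Tmem40.

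The number of private sites per tumour was 28, 44 and 30 in A2iL-P9 tumours 1, 2 and 3, 41 in the A2iL-P14 tumour, 45 in the 2iL-P9 tumour, 21 in the 2iL-F-P9 tumour, and 59 and 155 in LCDM-P9 tumours 1 and 2. LCDM-P9 tumour 2 held the most, although its list was the shortest. That list had 3634 calls against 9752 to 10325 in the other 7, and 2928 of its 3451 dbSNP calls were in no other tumour. The median allele fraction of its dbSNP calls was 0.917, against 0.433 to 0.440 in the other 7 lists. This tumour therefore stands apart from the others at known polymorphisms too, and it is left out of the tests and described on its own. Whether it has the same strain background as the others was not tested, and its private sites cannot be told apart from inherited differences with these lists. The other 7 tumours held 268 private sites. When privacy was judged among these 7 lists alone, 8 sites were added, giving 276.

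**Figure D1:**
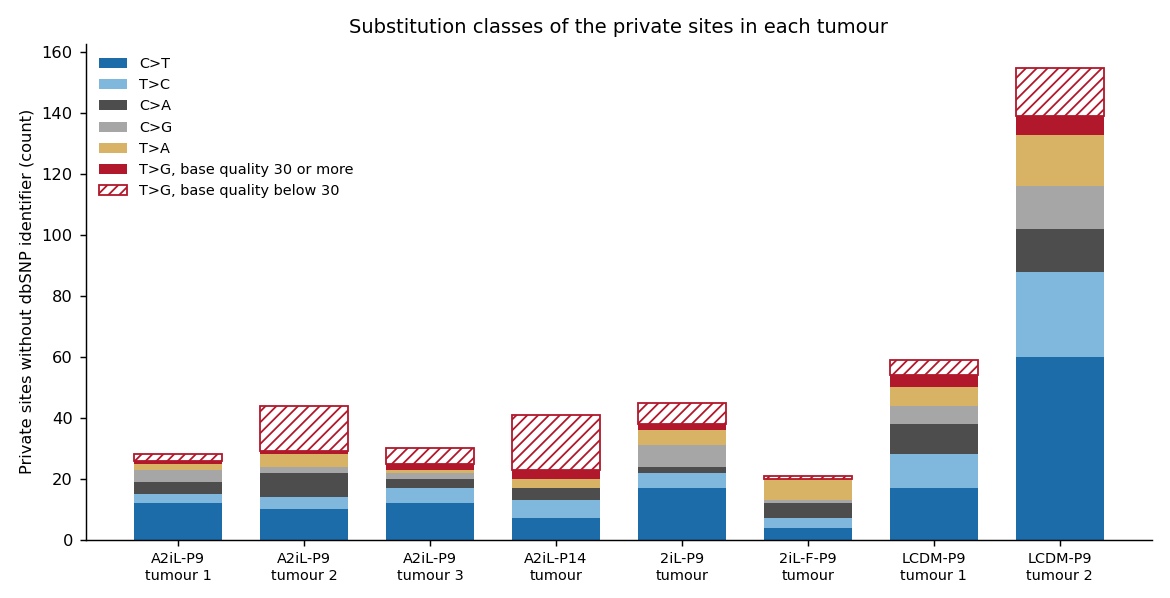
Number of private sites without dbSNP identifier in each tumour (bars, count), split by substitution class folded by strand. The hatched part of each bar holds T>G calls with base quality below 30, of which the A2iL-P14 tumour had 18 and A2iL-P9 tumour 2 had 15. LCDM-P9 tumour 2 had 155 sites in all.

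Among the P9 tumours with LCDM-P9 tumour 2 left out, the 3 A2iL-P9 tumours held 34 ± 8.72 private sites (SD, n = 3) and the 2iL-P9, 2iL-F-P9 and LCDM-P9 tumour 1 lists 41.7 ± 19.2 (SD, n = 3). The difference of -7.67 was smaller than the spread between tumours (exact permutation test, two-sided p = 0.6, smallest possible 0.1). It was -36 with LCDM-P9 tumour 2 among the others, -18 without the 2iL-F-P9 tumour, -12.7 without A2iL-P9 tumour 2, -4.67 without A2iL-P9 tumour 1 and 1 without LCDM-P9 tumour 1. The comparison pools 3 culture conditions with 1 tumour each, so no single condition was tested. The counts also depend on the rule of choice. A change shared by A2iL tumours was not private, and 3 A2iL-P9 lists and 1 A2iL-P14 list were among those compared for privacy. The 2iL-P9 and 2iL-F-P9 conditions had 1 list each. The test therefore cannot say whether the conditions differ in acquired changes.

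In the 7 tumours the private sites comprised 79 C>T, 66 T>G, 37 T>C, 36 C>A, 28 T>A and 22 C>G changes. T>G was the second most frequent class. It made up 21 of 41 sites (51.2%) in the A2iL-P14 tumour and 16 of 44 (36.4%) in A2iL-P9 tumour 2. The counts were 9 each in the 2iL-P9 tumour and LCDM-P9 tumour 1, 7 and 3 in A2iL-P9 tumours 3 and 1, and 1 in the 2iL-F-P9 tumour. LCDM-P9 tumour 2 had 60 C>T, 28 T>C, 22 T>G, 17 T>A, 14 C>A and 14 C>G changes.

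Base quality, the mean quality score of the bases that carry the alternative allele, set the T>G calls apart. Private T>G sites had a median base quality of 19 over all 8 tumours, and 69 of 88 (78.4%) were below 30. Of the other private sites 14 of 335 (4.18%) were below 30, at a median of 37. Seen the other way, 69 of the 83 private sites below 30 (83.1%) were T>G. T>G calls elsewhere in the same lists did not have this property. Among recurrent sites 9 of 133 T>G calls (6.77%) and among dbSNP sites 35 of 4796 (0.730%) were below 30, with medians of 37. In these counts of calls a site counts once in each list that holds it.

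**Figure D2:**
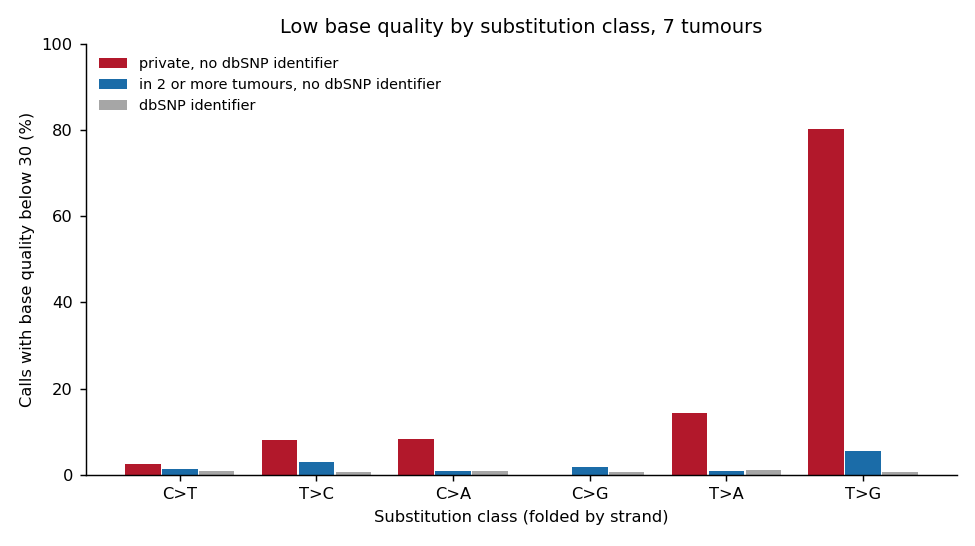
Share of calls with base quality below 30 (%) by substitution class over the 7 tumours other than LCDM-P9 tumour 2, for private sites without identifier (red), recurrent sites without identifier (blue) and dbSNP sites (grey). The private T>G bar stands at 80.3%, against 5.51% for recurrent and 0.725% for dbSNP T>G calls.

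Other measures of the low-quality T>G calls are given for the 7 tumours, without LCDM-P9 tumour 2. The median allele fraction of these 53 calls was 0.208 at a median depth of 37 reads, against 0.107 at 42 reads for the other 215 private sites. Coding sequence held 4 of the 53 (7.55%) and 50 of the 215 (23.3%). The blood control had an alternative read at 7 of the 53 (13.2%) and at 47 of the 215 (21.9%). Over all 8 tumours, of 7 coding T>G sites, 5 were below 30: Olfr1395 L131R, Tanc2 M263L, Cpne5 A548A, Prrt3 T445P and Ulk1 S479S. The other 2, Kif27 S214R and Vmn2r91 I230S, had a base quality of 37.

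Runs of neighbouring T>G calls were seen in LCDM-P9 tumour 2, A2iL-P14 and A2iL-P9 tumour 3. In an intron of the netrin receptor gene Unc5d, 4 consecutive bases (chromosome 8, positions 28675182 to 28675185, mm10) were each called T>G in 8 to 10 of 44 to 46 reads of LCDM-P9 tumour 2, at base qualities of 14 to 22. In an intron of Chfr, a mitotic checkpoint ubiquitin ligase, a pair of T>G calls at positions 110143754 and 110143756 of chromosome 5 had 22 of 61 and 21 of 60 reads in the A2iL-P14 tumour. Their base qualities were 30 and 21. Brca2, which loads the recombinase in homologous recombination, had adjacent T>G calls in its 3′ untranslated region in A2iL-P9 tumour 3 (5 of 21 and 3 of 20 reads, base qualities 32 and 29).

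With base quality of at least 30, 203 private sites remained in the 7 tumours, and T>G made up 13 of them (6.40%), against 7.57% of recurrent and 6.71% of dbSNP calls with the same minimum. C>T then made up 37.9% of private, 43.6% of recurrent and 41.8% of dbSNP calls.

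The make-up of the private sites was compared with recurrent and with dbSNP sites of the same lists, with 1 difference per tumour, in 10 exact two-sided sign-flip permutation tests over the 7 tumours, adjusted over the 10 by Benjamini-Hochberg. The smallest p that 7 tumours allow is 0.0156, and with 1 tumour left out it is 0.03125, so that most adjusted values then end at 0.0521 by construction. The replicate is the tumour list, and the p-values measure only the spread between these lists, which share 1 control. The lists also share most reference sites. Of 9513 to 10039 dbSNP calls per list, 70 to 119 were in no other tumour, and recurrent sites are shared by definition. The small SDs of the reference shares below therefore do not measure independent replication.

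Transitions made up 43.3 ± 10.8% of private sites (SD, n = 7) and 73.2 ± 0.0933% of dbSNP sites, a difference of -29.9 percentage points, with private sites lower in 7 of 7 tumours (exact permutation, adjusted p = 0.0260). Recurrent sites had 63.9 ± 2.60% transitions, a difference of -20.6 points, again lower in 7 of 7 (exact permutation, adjusted p = 0.0260). C>T changes alone made up 29.8 ± 10.5% of private sites, against 41.8 ± 0.196% of dbSNP sites (difference -12.0 points, lower in 6 of 7, exact permutation, adjusted p = 0.0446) and 43.4 ± 1.46% of recurrent sites (-13.7, lower in 7 of 7, exact permutation, adjusted p = 0.0260). The transition and C>T calls did not hold with a base quality minimum. With base quality of at least 30 the transition differences were -18.7 points against dbSNP sites (exact permutation, adjusted p = 0.0781) and -9.42 against recurrent sites (0.25), and the C>T differences -4.11 (0.647) and -6.02 (0.417).

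Segmental duplications, stretches of near-identical sequence where reads can be placed on the wrong copy, held 25.8 ± 14.7% of private sites (SD, n = 7) and 2.78 ± 0.0760% of dbSNP sites. The difference was 23.0 points, with private sites higher in 7 of 7 tumours (exact permutation, adjusted p = 0.0260). It ranged widely: 44.4% of private sites lay in duplications in the 2iL-P9 tumour and 42.9% in the 2iL-F-P9 tumour, but 9.76% in the A2iL-P14 tumour and 8.47% in LCDM-P9 tumour 1. Recurrent sites had 31.9 ± 1.90%, and the difference of -6.09 points did not pass (exact permutation, adjusted p = 0.434).

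Coding sites were 19.5 ± 8.68% of private sites (SD, n = 7), against 37.8 ± 1.44% of recurrent sites (difference -18.3 points, lower in 7 of 7, exact permutation, adjusted p = 0.0260) and 23.1 ± 0.117% of dbSNP sites (-3.60, lower in 5 of 7, adjusted p = 0.410). Of the coding private sites 58.7 ± 19.7% changed the protein, against 28.5 ± 0.172% of coding dbSNP sites. This difference of 30.1 points was positive in 7 of 7 tumours (exact permutation, adjusted p = 0.0260). It rests on 3 to 19 coding private sites per tumour. Recurrent coding sites had 52.9 ± 2.73%, and the difference of 5.80 points did not pass (exact permutation, adjusted p = 0.4375). Base quality of at least 30 brought the duplication and protein-changing differences against dbSNP sites, and the coding difference against recurrent sites, to an adjusted p of 0.0521 (exact permutation), at differences of 29.1, 28.7 and -16.3 points. Their p before adjustment stayed at 0.0156 (exact permutation), the smallest possible.

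**Figure D3:**
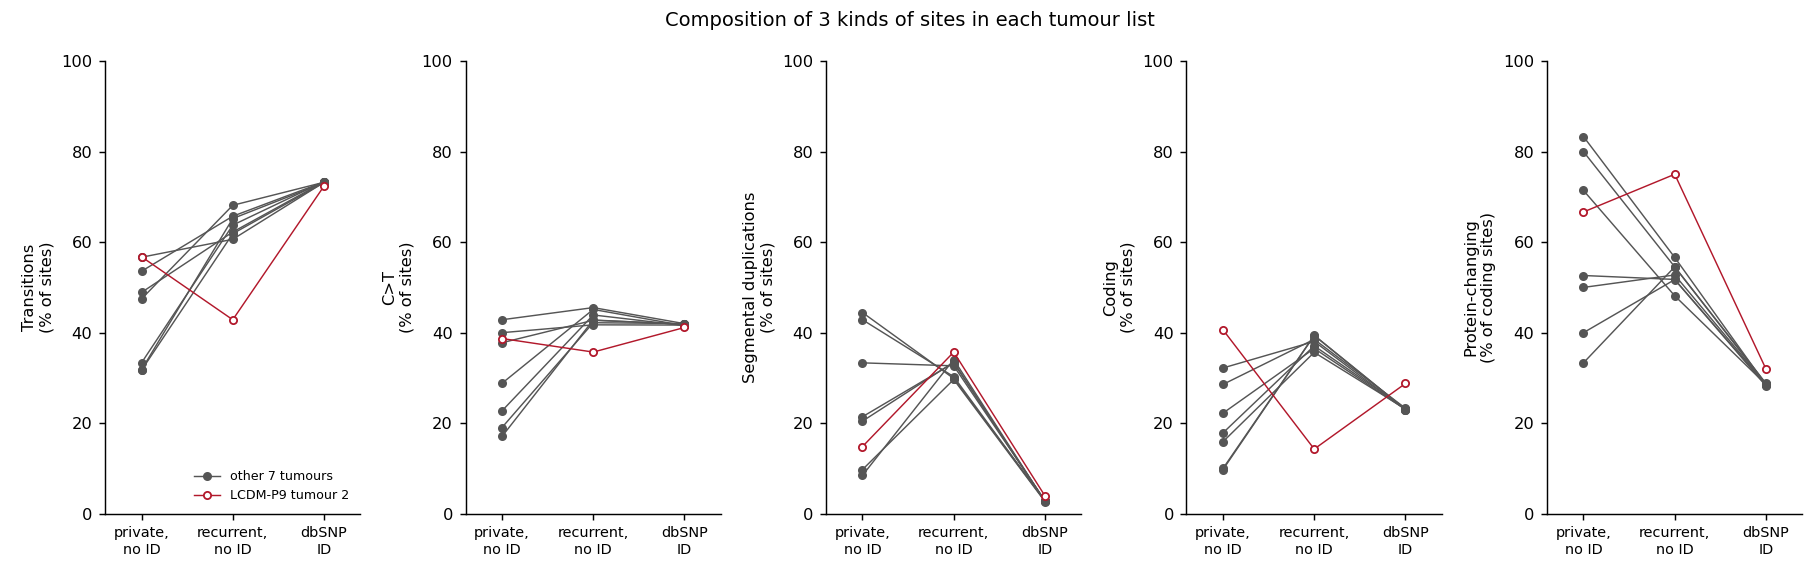
Measures of composition (%, y axes) for private sites without identifier, recurrent sites without identifier and dbSNP sites, with a line for each tumour (grey, 7 tumours, and red, LCDM-P9 tumour 2). In the grey lines transitions run from 31.7 to 56.7% of private sites and from 73.1 to 73.4% of dbSNP sites. Segmental duplications run from 8.47 to 44.4% of private sites and from 2.69 to 2.88% of dbSNP sites.

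Support behind a private call was low in the 7 tumours. The median number of alternative reads was 4 to 6 per tumour at median depths of 29 to 56 reads, and the median allele fraction 0.083 to 0.167. Of the 268 sites, 240 had a fraction below 0.35, 22 had 0.35 to 0.65 and 6 had more, and those 6 rested on a depth of 2 or 3 reads. The blood control had an alternative read at 54 of the 268 sites (20.1%), against 45.6% of recurrent and 37.7% of dbSNP calls in these lists. No call of any of these kinds had more than 1 such read. Among private sites the share ran from 7.32% in the A2iL-P14 tumour to 40% in the 2iL-P9 tumour. Base quality of at least 30, at least 5 alternative reads, no alternative read in the control and a position outside duplications and repeats were met together by 41 of the 268 (15.3%), of which 19 were in LCDM-P9 tumour 1, 1 each in the 2iL-P9 tumour and A2iL-P9 tumour 3, and 0 in the 2iL-F-P9 tumour. The same criteria were met by 27.1% of recurrent and 46.6% of dbSNP calls in these 7 lists. Sites just outside the choice, with 2 lists in place of 1, numbered 68. Their median fraction was 0.1195 with 5.5 alternative reads at a depth of 69, and that of the 423 private sites was 0.16 with 6 alternative reads at a depth of 48. The lists hold called sites alone, so how many reads another tumour had at a private site is not known.

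**Figure D4:**
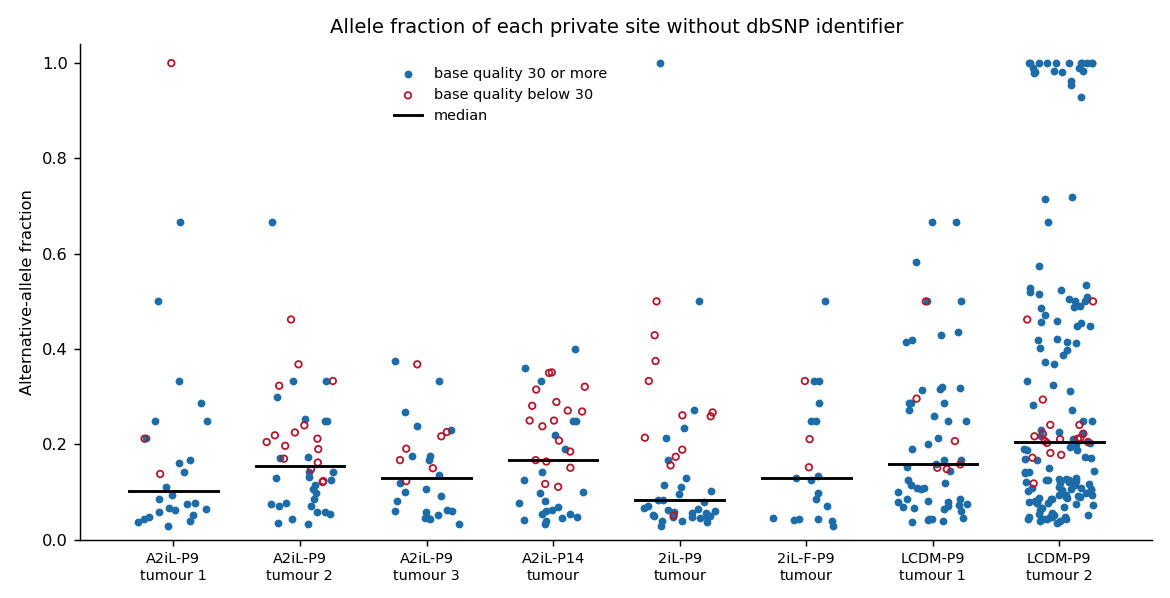
Alternative-allele fraction of each private site (points, y axis 0 to 1) by tumour, with base quality below 30 as open red circles, other sites in blue and the median as a black line. Medians lie between 0.083 and 0.167 in 7 tumours and at 0.205 in LCDM-P9 tumour 2, which has 21 sites at 0.9 or above.

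Missense changes with most alternative reads outside duplications and with none in the control were read off for each tumour, up to 4 each. LCDM-P9 tumour 1 had the best supported ones of the 7 tumours. Fam71a K452N (chromosome 1, position 191163089, exon 1) had 23 of 72 reads (fraction 0.319, 95% Wilson interval 0.223 to 0.434). Gucy2f R842W (chromosome X, position 142105309, exon 13), in a retinal guanylate cyclase, had 21 of 50 reads (0.420, 0.294 to 0.558). Hip1r R52W (chromosome 5, position 123989365, exon 2), in a protein that links clathrin coats to actin, had 11 of 35 reads (0.314). The gene 9430007A20Rik, Aadacl4fm1 in RefSeq, had K331R in 19 of 131 reads (0.145). Its interval of 0.0949 to 0.215 lies below those of Fam71a and Gucy2f.

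A2iL-P9 tumour 2 had 4 such changes with 3 to 5 alternative reads. Prpf8 I1571V, in the core spliceosome protein of that name (chromosome 11, position 75501390, exon 29), had 5 of 68 reads. Slc13a2 W9R, in a dicarboxylate transporter, had 5 of 70, Krt8 P81L, in an epithelial keratin, 3 of 28, and the semaphorin gene Sema3f R629H 3 of 21. A2iL-P9 tumour 1 had Vmn2r18 D110N, in a pheromone receptor, with 5 of 133 reads, and Pde2a L422M, in a cyclic nucleotide phosphodiesterase, with 5 of 58. A2iL-P9 tumour 3 had Pnkd R108H with 4 of 65 reads. Of the 2 changes in the A2iL-P14 tumour, Pmfbp1 M666T, in a sperm flagellum protein, had 4 of 21 reads at base quality 30, and Olfr1395 L131R 5 of 27 reads at base quality 19.

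The 2iL-P9 tumour had Tuba1b D345V, in an alpha-tubulin (chromosome 15, position 98931904, exon 4), with 6 of 153 reads (0.039, 0.0181 to 0.0829), and Nup210 T186M, in a nuclear pore protein, with 4 of 62. In the 2iL-F-P9 tumour Ptpdc1 D657Y, in a tyrosine phosphatase, had 4 of 97 reads. Thrap3 R720C, in an mRNA processing factor, had 4 of 87, and Prr36 A921E 2 of 8. In these 6 tumours the missense changes named here therefore had 2 to 6 alternative reads each. Their intervals cover counting error only.

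The stop and splice changes of the 7 tumours were both in the 2iL-F-P9 tumour and both in segmental duplications. Cdv3 X282Q, a stop-loss (chromosome 9, position 103355165, exon 5), had 9 of 208 reads (0.043). Gsdmc, a pore-forming gasdermin, had a change near the splice site after exon 9 (chromosome 15, position 63779525) in 3 of 43 reads.

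LCDM-P9 tumour 2 had deeper and wider-ranging private sites. Its 155 sites had a median of 11 alternative reads, a median depth of 66 and a median fraction of 0.205. Of them 101 lay below 0.35, 30 from 0.35 to 0.65, 3 above that and 21 at 0.9 or above. The 21 had depths of 13 to 179 reads, and 10 were coding. None was T>G, and 7 were on chromosome 11, which held 17 of the 155. The share of all its calls on that chromosome was not counted. The 4 criteria of support listed above were met by 79 of the 155 (51.0%), and by 21.4% of its recurrent and 70.5% of its dbSNP calls. Chromosome X held 11 of its sites, against 4 of the 268 in the other tumours. Of dbSNP calls it held 7 of 3451 in this tumour and 23 of 67878 in the other tumours. Of recurrent calls it held 2 of 28 and 23 of 1618. An alternative read was in the control at 23 of 155 sites (14.8%), against 35.7% of its recurrent and 17.0% of its dbSNP calls. Duplications held 23 of the 155 (14.8%), against 35.7% and 3.94% in the same order.

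Among sites at 0.9 or above, the missense changes were Nrd1 V889F, in the metallopeptidase nardilysin (chromosome 4, position 109056317, exon 23), in 176 of 179 reads (0.983, 95% Wilson interval 0.952 to 0.994), Il4 V55I, in a T helper cytokine, in 25 of 25, Shox2 D126H, in a homeobox factor, in 15 of 15, Acot11 S493T, in an acyl-CoA thioesterase, in 14 of 14, Sohlh2 P421Q, in a germ cell transcription factor, in 13 of 14, and Vgll1 G26S, in a TEAD cofactor on chromosome X, in 39 of 39. Of these, Nrd1 was named by read number and the other 5 after their values were seen. Hfm1, a helicase of meiotic crossing over, had a T>C change near the splice site after exon 16 (chromosome 5, position 106896228) in 54 of 55 reads (0.982). Nearly all reads carried the new base at these sites, and the control had an alternative read at Vgll1 alone among these 7.

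Near a fraction of 0.5 stood Olfr527 R226Q with 84 of 166 reads (0.506, 0.431 to 0.581) and Nup88 R468Q, in a nuclear pore protein (chromosome 11, position 70947786, exon 10), with 65 of 124 (0.524, 0.437 to 0.610). Nsd1 G950R, in a histone methyltransferase (chromosome 13, position 55247126, exon 5), had 38 of 98 (0.388, 0.297 to 0.487). The intervals of Olfr527 and Nup88 include 0.5, and that of Nsd1 does not. An intronic change of Kdm5b, a histone demethylase, had 84 of 183 reads (0.459).

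Both stop-gain calls were in LCDM-P9 tumour 2. Fam57a W78X (Tlcd3a in RefSeq, chromosome 11, position 76205280, exon 3) had 8 of 94 reads (0.085). Egfr S306X, in the epidermal growth factor receptor, a receptor tyrosine kinase of many tumours (chromosome 11, position 16871003, exon 8), had 25 of 123 reads (0.203, 0.142 to 0.283). The next base, position 16871004, was also a private site of this tumour, annotated S306S, with 25 of 122 reads (0.205, 0.143 to 0.285). Both had base quality 37 and 0 control reads of 119. Annotated one at a time, the first change gives a stop and the second is silent. Read together in 1 codon they give S306Y, a missense change. The lists do not say whether the reads that carry one also carry the other. Another shared codon, in Gm3558 of the 2iL-P9 tumour, has S201S and S201N with 7 of 136 and 7 of 137 reads in a duplication, and there the joint change is S201N as well.

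Private sites were counted in lists of genes of cancer, repair and stem cell biology, which do not hold every gene of these fields. Chfr and Aptx, for example, are in none of them, and Egfr is counted with the oncogenes. The list of DNA repair and checkpoint genes had the 2 Brca2 sites above, that of the cell cycle an intronic site of the cyclin gene Ccna1 (6 of 48 reads), and that of tumour suppressors and oncogenes the 2 Egfr sites and an intronic T>G site of the Ras regulator Nf1 (16 of 76 reads, base quality 12). The Ccna1, Egfr and Nf1 sites were all in LCDM-P9 tumour 2. Chromatin genes had 3 sites, 2 in introns of Kdm5b and Nsd1 G950R. The lists for growth factor and kinase signalling, pluripotency and telomeres had 0, and they hold 0.126%, 0.0133% and 0.0466% of all tumour sites, less than 1 site in 423, so that nothing can be read from these counts. As a share of private sites these were 0.473% for repair, 0.236% for the cell cycle, and 0.709% each for tumour suppressors with oncogenes and for chromatin genes. Of all tumour sites the shares were 0.951%, 0.133%, 0.353% and 0.346% for the same 4 lists. With 1 to 3 sites each, no order of these shares can be read.

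Large gene families of smell and pheromone sensing took more of the sites. Olfactory receptors held 9 of the 423 (2.13%), and 0.233% of all tumour sites. Vomeronasal receptors held 13 (3.07%), and 0.486% of all sites. LCDM-P9 tumour 2 had 5 of the 9 olfactory and 4 of the 13 vomeronasal sites. Of the 9 olfactory sites, all coding, 3 changed the protein: Olfr527 R226Q, Olfr1395 L131R and Olfr513 P228L (9 of 125 reads). The other 6 were synonymous, led by Olfr516 P183P with 27 of 272 reads and Olfr320 L250L with 22 of 53. Olfr1404 L35L had 16 of 138, Olfr943 G150G 8 of 104, Olfr130 I98I a fraction of 0.042 and Olfr1128 P93P one of 0.038. Olfactory genes belong to a multigene family, and of these sites only Olfr320 lay in an annotated duplication. Whether any of the reads belong to another family member was not tested.

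Of the 13 vomeronasal sites 9 were in duplications. The 9 coding ones had 5 to 9 alternative reads at depths of 58 to 270. They were Vmn2r28 G315V, Vmn1r124 P163S, Vmn2r18 D110N, Vmn1r168 F221I, Vmn2r80 R432G and Vmn2r91 I230S, which change the protein, and the synonymous Vmn2r89 F165F, Vmn2r104 R699R and Vmn1r125 V109V. Gene models named Gm held 23 sites (5.44%, against 1.62% of all sites), 22 of them in duplications. Coding ones were Gm3558 S201N and S201S, Gm10220 P247S, Gm13247 D17Y and E25E, and the site A27V assigned to Gmcl1l and Gm2799 together, with 65 of 431 reads. Genes named Zfp in the lists held 3 sites (0.709%, against 1.30% of all sites), of which Zfp93 I274V was coding (8 of 89 reads). Families were counted by the names in the lists. Gm13247 is Zfp981 in RefSeq, so its 2 coding sites are among the gene models and not among the Zfp sites. No lower share of Zfp genes can therefore be read. Keratin genes held 4 (0.946%, against 0.339%), of which Krt8 P81L was coding. Mucins held 0 of all 15030 tumour sites.

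Few genes were hit more than once. Of 345 gene names, 12 had private sites in 2 tumours, at different positions, and in 8 of the 12 every site lay in a duplication. These 8 were 2610005L07Rik, 4930572O03Rik, Gm10471, Gm13247, Gm16432, Gm5458, Psg26 and Sfi1. The others were Kdm5b, the muscle gene Neb, Phf11d and Zfp93. In Gm13247 the 2 sites lay 26 bases apart in the 2 LCDM-P9 tumours. Neb had K1825K in 32 of 86 reads of LCDM-P9 tumour 2 and an intronic T>G call at base quality 17 in LCDM-P9 tumour 1. Sfi1, of the centrosome, had R356C in 4 of 25 reads of A2iL-P9 tumour 1. Private protein-changing sites lay in 73 genes, and 0 of these genes had them in 2 tumours. LCDM-P9 tumour 2 alone held 42 of the 73 protein-changing sites. How often genes of other tumour sites recur between tumours was not counted. The small overlap therefore cannot be read as a property of the private sites. Gm3558 and Unc5d had 4 sites each in 1 tumour.

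Some private sites were in the ESC lists of the same series, which were called against another control in which no calls of a chromosome lie closer than 10 kb. An ESC list held 30 of the 423 private sites (7.09%), of which 8 were in an ESC list of the condition in the tumour's name and 17 in 1 ESC library. The other matches were in lists of other conditions alone. A share to set beside the 8 was not computed, so descent from the named condition cannot be read from them. Of the 347 recurrent sites 177 (51.0%) were in an ESC list. By tumour group, 27 of 268 were in the 7 tumours and 3 of 155 in LCDM-P9 tumour 2. The 3 were intronic sites of Ly6a and Sirpb1b and the synonymous Utp18 A429A. Utp18, of ribosomal RNA processing, had 116 of 118 reads in the tumour (0.983) and a fraction of 0.046 in 1 ESC library of 2iL. Ly6a had 0.448 in the tumour and 0.034 to 0.041 in 1 library each of LCDM and 2iL.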

How the data were processed

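The 8 tumour lists and the 10 ESC lists deposited by the authors were read; 3 further samples (fibroblasts and 2 blood samples) have no list of their own here. Mouse build mm10 and the tools BWA, Picard and SAMtools are named, with no version, by the submitters' processing notes. No source used here names the variant caller. According to their headers, the deposited lists give for each site the genotype, reads per allele, base quality, depth, allele fraction and somatic status of a library and of its control. These call fields are text holding several units and were split, not rescaled. The control column of every tumour list is headed WT_2, taken as the blood sample WT-2, and held identical values at all 11075 sites shared between tumour lists. The lists hold called sites only, so total sequencing depth is unknown, and depth is given per site. Fractions of single sites have 95% Wilson intervals, which cover counting error only.

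Substitutions were folded by strand. Duplication, repeat, gene and dbSNP fields are those of the lists. Protein changes are numbered on the first RefSeq transcript listed. Of 345 gene names, 329 were RefSeq symbols and 12 were synonyms; 45 private sites had no gene. The promoter and microRNA tables were RefSeq's (GRCm38.p6), the same build as mm10. Sign-flip and permutation tests enumerated all assignments and were tested on simulated data (Python 3.11.15, pandas 2.3.3, scipy 1.17.1). Named by rule were stop and splice changes, up to 4 missense changes per tumour (outside duplications, no control read, most alternative reads), coding sites in 13 gene lists, and genes with sites in 2 tumours or with 3 or more sites in 1. The promoter sites, neighbouring sites, coding T>G sites, further sites at 0.9 or above or in ESC lists, and non-coding sites of the lists were picked by name once their values were known. The sites and lists were chosen with earlier results of these data known. Alternatives tried were minimums of 20 reads, of 5 alternative reads and of base quality 30, no control read, no duplications or repeats (no repeats alone for the duplication share), close sites counted once, privacy by position or among 7 tumours, no sites of ESC lists, LCDM-P9 tumour 2 added, and each tumour left out.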

Additional observations from a re-analysis of the deposited data

How the results depend on the processing

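Over 110 alternative values of 11 results, 88 kept their direction and their side of the threshold. With at least 20 reads the C>T difference was -8.80 points against dbSNP sites and -10.9 against recurrent sites, neither past the threshold. With at least 5 alternative reads these were -15.8 and -17.3. The same setting gave transition differences of -32.7 and -23.7, duplication and protein-changing differences against dbSNP sites of 32.8 and 26.4, and a coding difference against recurrent sites of -15.5, none past the threshold. It turned the sign of 2 differences that had not passed: coding against dbSNP sites became 0.0891 and duplication against recurrent sites 1.72. Outside segmental duplications and repeats the coding difference against dbSNP sites was 5.29. The duplication share was tried outside repeats alone, where it differed by 30.5 from dbSNP sites and -1.50 from recurrent sites. With base quality of at least 30 the differences, none past the threshold, were -18.7 and -9.42 for transitions, -4.11 and -6.02 for C>T, 29.1 for duplications and 28.7 for protein-changing sites against dbSNP, and -16.3 for coding against recurrent sites. Adding LCDM-P9 tumour 2 gave, against recurrent sites, -16.3 for transitions, -11.6 for C>T and -12.7 for coding, none past the threshold. Before adjustment, p stayed at the smallest possible value of 0.0156 (exact permutation) for some of these. With at least 5 alternative reads they were the transition differences and the duplication difference against dbSNP sites. With base quality of at least 30 they were the duplication, protein-changing and coding differences just given. Their adjusted p of 0.0521 reflects how many of the tests adjusted together reached that value, not a larger p. Each minimum also left fewer sites, and the cause of the other changes was not tested.

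With each tumour left out in turn, differences against dbSNP sites ran from -32.1 to -28.0 for transitions, -14.2 to -9.91 for C>T, 19.95 to 25.9 for duplications, -5.73 to -1.98 for coding and 26.0 to 34.4 for protein-changing sites. Against recurrent sites they ran from -23.4 to -18.5, -15.7 to -11.7, -9.53 to -2.84, -20.4 to -16.4 and 2.32 to 10.3 in the same order. The 7 differences past the threshold stayed past it without A2iL-P9 tumour 1 (adjusted p = 0.0446, exact permutation). Without any of the other 6 tumours C>T against dbSNP sites had 0.0893 and the remaining 6 had 0.0521, since 6 tumours allow no p below 0.03125. The difference in number of sites between A2iL-P9 and other P9 tumours ran from -18 to 1, with its sign turned without LCDM-P9 tumour 1. No paired analysis was possible because the compared P9 groups share 1 replicate number at most, and the other tests set kinds of sites within a tumour against each other. The number of reads per site, with a median of 4 to 6 alternative reads in the 7 tumours, limits what a single call can show.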

Other observations

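Neighbouring private sites were few: 18 sites followed another private site of the same tumour within 200 bases, and 8 of these were in LCDM-P9 tumour 2. A known polymorphism of the same list lay within 10 kb of 15.9 to 38.1% of the private sites in the 7 tumours and of 14.8% in LCDM-P9 tumour 2. Intronic neighbours in Gabra2, a GABA receptor gene, had 5 of 56 and 5 of 57 reads in LCDM-P9 tumour 2, and a pair of C>A calls in Usp19, a deubiquitinase gene, 2 of 3 reads each in LCDM-P9 tumour 1.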
